A study of Mus musculus with 2 samples.

Results

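Fibro 2 is a fibroblast population of the mouse aorta that the authors named in their cell annotation, and here its cells rich in Pi16 were compared with its other cells. The annotation gave the name Fibro 2 to 634 of 5451 cells. For each of these cells the UMIs (unique molecular identifiers, 1 per captured transcript) of Pi16, Smpd3 and Pla1a were added and divided by the cell's total, giving a score per 10000 UMIs. Within each library, cells above the 70th percentile of the score were called high, cells at or below the median low, and the cells between them middle. There were 190 high cells (62 in library 1 and 128 in library 2), 126 middle cells (41 and 85) and 318 low cells (104 and 214).

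The mice were female C57/BL6, wild type, 12 weeks of age and fed chow, and their entire aortas were dissociated after the perivascular fat had been taken off. The vessels ran from the aortic root to the femoral bifurcation and were digested with collagenases, hyaluronidase and DNase for 1 hour at 37 °C, so all regions of the aorta are mixed. The design has 1 group of 2 libraries, 1 per aorta, numbered here by the barcode suffix, and no allele or drug was compared. The diet is the one the deposited tables name. Mice on Western diet were not analysed here. Library 1 held 11104066 UMIs in 2260 cells and library 2 held 19484171 in 3191. High and low cells sat in the same libraries, so each library gave its own comparison. The libraries shared 12 cell barcodes, 2 Fibro 2 cells carried one of these, and none of the 12 was Fibro 2 in both.

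Adventitial fibroblasts lie in the outer coat of an artery, where they build the collagen and elastin matrix and signal to vessel wall and immune cells. In many mouse tissues, fibroblasts that express Pi16 and Dpp4 have been described as a progenitor-like state, and fibroblasts rich in Col15a1 as a state closer to the tissue's parenchyma and basement membranes. Pi16 encodes a peptidase inhibitor of the CAP family. Smpd3 encodes neutral sphingomyelinase 2, which makes ceramide, and Pla1a encodes a phospholipase that cuts phosphatidylserine.

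The score was graded, with no gap at either boundary. The boundary for high cells was 67.1 per 10000 UMIs in library 1 and 77.2 in library 2. In library 1 the highest cell left out of the high group scored 67.0 and the lowest cell in it 67.7, and in library 2 these were 77.0 and 77.9. The upper edge of the low group was at 35.5 and 35.6, and the next cells scored 35.9 and 35.7. Pi16 supplied 89.95% and 95.7% of the score UMIs of the high cells, so the score is mostly a Pi16 score. Its level was 14781 and 15757 CPM (the gene's UMIs scaled to a common total over the summed cells) in high cells of library 1 and library 2, and 1015 and 1040.1 CPM in low cells. No score UMI was found in 20 and 49 low cells. The groups were chosen by these UMI counts, so the values of the score genes in them are a description only.

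**Figure D1:**
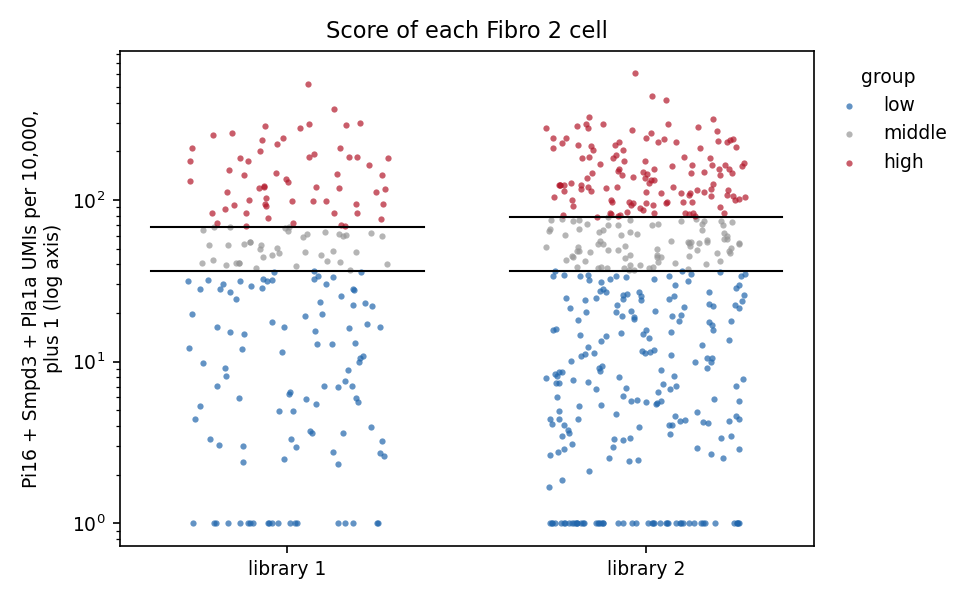
Score of each Fibro 2 cell (Pi16, Smpd3 and Pla1a UMIs per 10000, plus 1, log axis) in library 1 and library 2, with black lines at the upper edge of the low group and the lower edge of the high group. The points run without a gap across both lines, and cells without a score UMI lie at 1.

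Depth moved with the score. High cells had a median of 4978.5 and 7571 UMIs per cell in library 1 and library 2, low cells 4326 and 4792. Genes detected per cell were 2118.5 and 2537.5 against 1828.5 and 1848.5. The median share of mitochondrial UMIs was 3.25% and 3.34% in high cells and 3.52% and 3.87% in low cells. Cells were therefore also matched in total UMIs and, separately, thinned to 2000 UMIs each. For the fits after thinning, cells were scored and grouped anew on the thinned counts, so a lost call there can also reflect changed groups.

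The first question was whether the genes of the score mark the same cells. Each gene was therefore measured in cells split by the other genes of the score, so that it played no part in choosing them. With the cells split by Smpd3 and Pla1a, Pi16 stood at 11529 and 11407 CPM in high cells and 3387 and 3880.2 CPM in low cells. Its log2 fold change was 1.66 ± 0.23 (SE; edgeR quasi-likelihood test with Benjamini-Hochberg adjustment, adjusted p = 5.83e-06, n = 2 libraries). Smpd3, in cells split by Pi16 and Pla1a, stood at 1219 and 387 CPM against 133 and 46.1 CPM. The groups did not overlap although library 1 was higher than library 2 in each of them, and the log2 fold change was 3.09 ± 0.21 (edgeR adjusted p = 1.52e-12). Pla1a, in cells split by Pi16 and Smpd3, stood at 241 and 269 CPM against 28.4 and 52.7 CPM, with a log2 fold change of 2.53 ± 0.21 (edgeR adjusted p = 7.57e-11). Each of the 3 genes was thus higher in cells picked without it, in both libraries. The 3 genes were chosen together with earlier results of these data known. Their rise together is therefore partly fixed by that choice and is a description only. In the split by Smpd3 and Pla1a, cells tied at the median made the low group larger, with 119 and 250 cells. In these fits 5.09%, 5.07% and 4.98% of all genes tested were called (2.22%, 2.48% and 2.44% higher, 2.87%, 2.6% and 2.54% lower).

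The high cells also gathered when cells were clustered without the score genes. Leiden clustering of the 634 cells on all other genes gave 4 clusters, of which 1 held more high than low cells. It took 75.8% of the high cells of library 1 (47 of 62, exact 95% binomial interval 63.3% to 85.8%) and 75.0% of those of library 2 (96 of 128, 66.6% to 82.2%). Of the low cells it took 3.85% (4 of 104) and 2.34% (5 of 214), and of the middle cells 22.0% and 42.4%. Another cluster of 126 cells held 122 low cells, 4 middle cells and no high cell, so the low group is itself mixed. The first cluster was picked for holding more high than low cells, so that direction is fixed by the choice. High cells were deeper, and the clustering was not repeated in matched or thinned cells. These intervals cover counting error only, with cells of 1 aorta taken as independent, and clusters are described without a test.

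**Figure D2:**
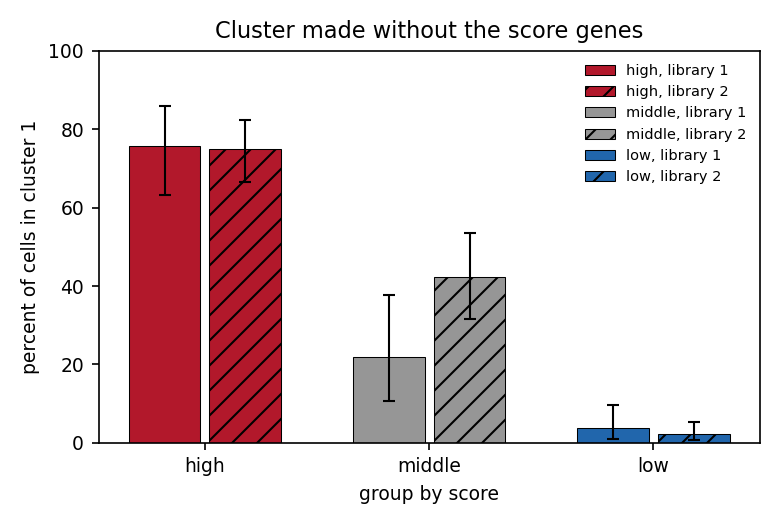
Percent of high, middle and low Fibro 2 cells in the cluster with more high than low cells, by library (plain bars library 1, hatched bars library 2), with exact 95% binomial intervals as error bars. The bars fall from 75.8% and 75.0% in high cells to 3.85% and 2.34% in low cells, with the middle cells between.

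Across 10254 genes tested, without the score genes, 256 were higher and 279 lower in high than in low cells at an adjusted p under 0.05 (edgeR, 2.5% and 2.72% of the genes tested; 5.22% in either direction). Of the 6350 genes with at least 50 UMIs in high and low cells 7.62% were called (3.8% higher, 3.83% lower). The direction was the same in each library for 533 of the 535 genes. The median log2 fold change over all genes tested was -0.01. In cells matched in total UMIs 162 genes were higher and 180 lower, and after thinning 146 and 188, and 328 and 277 of the 535 genes were called in the same direction there. The middle cells lay between high and low in both libraries for 181 of the 256 higher genes (70.7%) and 166 of the 279 lower genes (59.5%), against 1195 of all 10254 genes (11.7%). Called genes were selected for differing between high and low cells, so a place between them is partly fixed by that choice, and summed counts cannot tell graded cells from mixed ones.

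The genes of the Pi16 and Dpp4 progenitor state rose together. Of the 25 genes on that list, 23 were higher in high cells and none lower (background 2.5% and 2.72%), with a median log2 fold change of 1.82. This list and those below were chosen with earlier results of these data known. Their shares of called genes are therefore partly fixed by that choice and are a description only. Dpp4, a cell-surface peptidase (CD26) that names this state in several tissues, had 147 and 171 CPM in high cells of library 1 and library 2, 56.0 and 62.8 CPM in middle cells and 8.28 and 18.7 CPM in low cells. Its log2 fold change was 3.36 ± 0.31 (edgeR adjusted p = 8.79e-10). The 3 groups kept this order in both libraries. Dpp4 was found in 43.5% and 57.0% of high cells and 1.92% and 7.48% of low cells. After thinning to 2000 UMIs it was found in 17.0% and 23.2% against 2.17% and 1.47%, and in 0.0501% of smooth muscle cells, which should lack it. Shares of cells after thinning keep the groups made from the full counts, and thinning left out 9 and 3 high cells and 12 and 10 low cells.

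Cell-surface genes of the same list moved with Dpp4. Cd55, which protects cells from complement, had 403 and 359 CPM in high and 37.3 and 44.2 CPM in low cells (log2 fold change 3.11 ± 0.22, edgeR adjusted p = 3.07e-12). Cd248 (endosialin) had 790.0 and 582 CPM against 207 and 167 CPM (1.82 ± 0.14, edgeR adjusted p = 3.1e-11). Cd34, a sialomucin of stromal and vascular progenitors, had 1470.1 and 1560.3 CPM against 668 and 633 CPM (1.19 ± 0.19, edgeR adjusted p = 4.39e-05). In both libraries each of these 3 genes was higher in high cells, and 533 of all 535 called genes likewise kept 1 direction. Ly6c1 and Ly6a (Sca-1) differed less, with 1535 and 1501 CPM against 656 and 733 CPM for Ly6c1 (1.10 ± 0.21, edgeR adjusted p = 0.000355) and 3279 and 3199.6 CPM against 1856 and 1876 CPM for Ly6a (0.76 ± 0.23, edgeR adjusted p = 0.0454). Ly6a kept its call under 7 of 13 alternatives. The Ly6 genes resemble each other in sequence, so how reads were divided between them is uncertain.

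Secreted and intracellular members of the list rose as well. Sema3c, a secreted guidance cue, had 545 and 519 CPM in high, 234 and 332 CPM in middle and 93.1 and 92.6 CPM in low cells (log2 fold change 2.48 ± 0.18, edgeR adjusted p = 4.74e-12). Mfap5, a microfibril protein, had 3877 and 3813 CPM against 1020.3 and 1224 CPM in low cells (1.73 ± 0.20, edgeR adjusted p = 1.45e-07). Anxa3, a calcium-dependent membrane-binding protein, had 796 and 687 CPM against 153 and 143 CPM (2.28 ± 0.21, edgeR adjusted p = 4.91e-10). Dact2 was scarce in low cells and Efhd1 was lower there. Dact2, an intracellular regulator of Wnt and TGF beta signals, had 166 and 174 CPM against 4.14 and 5.95 CPM (4.93 ± 0.38, edgeR adjusted p = 3.78e-11), and Efhd1, a mitochondrial calcium-binding protein, 271 and 251 CPM against 20.7 and 25.5 CPM (3.37 ± 0.23, edgeR adjusted p = 1.58e-12). Efhd1 is not particular to fibroblasts here, with 222 and 219.9 CPM in smooth muscle cells. Igfbp6 and Has1 were the members not called. Igfbp6 had 2105 and 2121 CPM in high and 1614 and 2119 CPM in low cells (0.17 ± 0.28, edgeR adjusted p = 0.897), and Has1, a hyaluronan synthase, 45.1 and 41.1 CPM against 18.6 and 17.8 CPM (1.19 ± 0.43, edgeR adjusted p = 0.13).

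**Figure D3:**
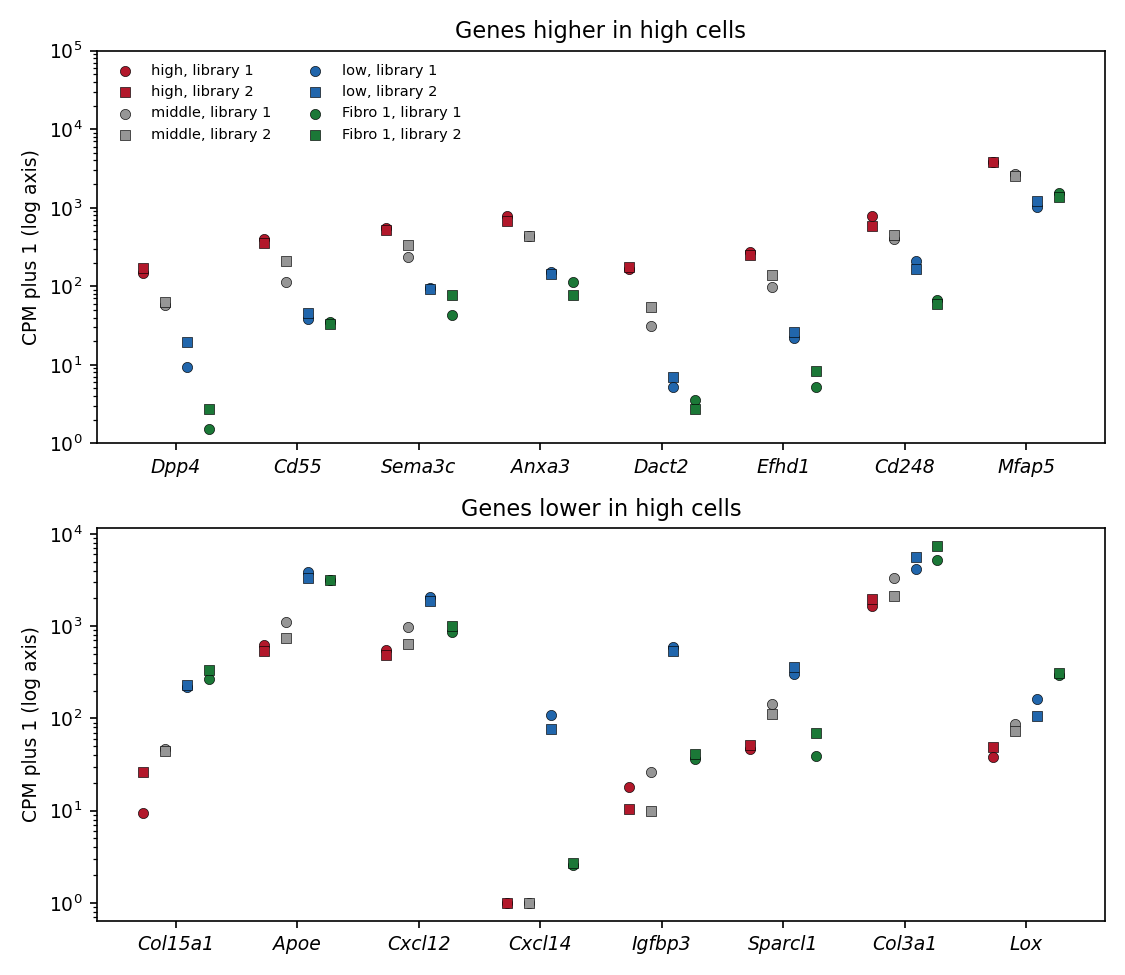
Levels (CPM plus 1, log axis) of 8 genes higher and 8 genes lower in high than in low Fibro 2 cells, in high (red), middle (grey) and low (blue) cells and in Fibro 1 (green), with circles for library 1 and squares for library 2. Dpp4 falls from 147 and 171 CPM in high cells to 8.28 and 18.7 CPM in low cells, and Cxcl14 has no UMI in high or middle cells.

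The genes with the largest folds toward the high cells were mostly found in few cells. Akr1c18, a steroid-metabolizing enzyme, had 36 and 229 UMIs in high cells and 0 and 1 in low cells, a ratio of 338 with a counting interval of 60.1 to 13383 (edgeR adjusted p = 5.09e-08). It has close paralogs, so the assignment of its reads is uncertain. Mrgprg, an orphan receptor of the Mas-related family, had 38 and 174 UMIs against 1 and 1, a ratio of 135 (36.9 to 1122; edgeR adjusted p = 2.24e-10). The 10% of high cells richest in Mrgprg held 92.5% of its UMIs there, and DESeq2 did not call it (adjusted p = 0.27). Akr1c18 UMIs were less concentrated, with 73.2% in the richest 10% of the cells. Ptgs1 (cyclooxygenase 1) had 257 and 186 CPM in high and 14.5 and 19.5 CPM in low cells (log2 fold change 3.51 ± 0.31, edgeR adjusted p = 3.32e-10), with 48.1% of UMIs in the richest 10%. The genes Aif1l (actin bundling), Arl4d (a small GTPase), Stmn4 (microtubule destabilizing) and Adra1b (an alpha-1 adrenergic receptor) had log2 fold changes of 4.33 ± 0.56, 3.63 ± 0.48, 3.60 ± 0.65 and 3.26 ± 0.59, all at no more than 67.4 CPM in high cells. Arl4d lost its call after thinning (edgeR adjusted p = 0.176) and Adra1b with DESeq2 (adjusted p = 0.925).

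Ccl21a, a chemokine of lymphatic endothelium, was also among the 12 largest folds, but 1 cell carried it. It had 285 and 13.7 CPM in high cells and 16.6 and 8.49 CPM in low cells (log2 fold change 3.15 ± 0.76, edgeR adjusted p = 0.00703). Of the 101 Ccl21a UMIs in high cells of library 1, 92 were in a single cell that also held 51 UMIs of other endothelial and lymphatic genes. Without the 9 Fibro 2 cells that carried at least 3 UMIs of 10 such genes, of which 3 were high and 2 low, its log2 fold change was 0.62 (edgeR adjusted p = 0.795). Under that setting 262 genes were higher and 262 lower in all.

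Genes of the committed or niche-type adventitial state went the other way. Of 21 tested members, 15 were lower in high cells and 1, Npr1, was higher (background 2.72% and 2.5%). The median log2 fold change was -1.81, or -1.57 with the 2 members that had no UMI in high cells at their bound. Col4a1, Col4a2 and Hspg2 stand on this list and on that of basement membrane genes, and Cxcl12 and Cxcl14 also on that of chemokines. Col15a1, a basement membrane zone collagen that names the state, had 8.46 and 25.3 CPM in high, 45.8 and 43.1 CPM in middle and 219 and 228 CPM in low cells (-3.51 ± 0.23, edgeR adjusted p = 1.02e-12). Apoe, the lipoprotein ligand, had 618 and 537 CPM against 3891 and 3341 CPM in low cells (-2.68 ± 0.20, edgeR adjusted p = 6.27e-12). Cxcl12, the stromal ligand of Cxcr4, had 556 and 486 CPM against 2055 and 1871 CPM (-1.95 ± 0.22, edgeR adjusted p = 4.14e-08). Low cells were above high cells in both libraries for each of these genes. Sparcl1, a matricellular protein, and Inmt, an indole methyltransferase, had 302 and 357 CPM and 786 and 1228 CPM in low cells against 45.1 and 50.6 CPM and 119 and 196 CPM in high cells. Their log2 fold changes were -2.85 ± 0.32 and -2.66 ± 0.32 (edgeR adjusted p = 4.17e-08 and 1.77e-07). Npr1, a natriuretic peptide receptor, had 95.9 and 127 CPM in high and 60.0 and 45.0 CPM in low cells (1.20 ± 0.23, edgeR adjusted p = 0.000417), with a log2 fold change of 0.64 in library 1 and 1.45 in library 2.

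The genes with the largest folds toward the low cells included secreted signals that high cells nearly lacked. Cxcl14, a chemokine, had 52 and 89 UMIs in low cells of library 1 and library 2 and none in high cells, so it was at least 36.9-fold lower in high cells (against 3 counts over the group; edgeR adjusted p = 6.18e-07). A Cxcl14 UMI was found in 0 of 190 high cells, which allows a share of cells with a UMI of up to 1.58% and sets no limit on cells expressing the gene, and in 4.81% and 7.48% of low cells. After thinning it was found in 4.35% and 6.86% of low cells and in 0.1% of smooth muscle cells. Igfbp3, a carrier of insulin-like growth factors, had 598 and 531 CPM in low cells and 16.9 and 9.48 CPM in high cells (-5.60 ± 0.28, edgeR adjusted p = 6.55e-16). Both genes were uneven within the low group: Igfbp3 was found in 26.0% and 29.4% of low cells, and the richest 10% of low cells held 78.8% of its UMIs. After thinning Igfbp3 was found in 23.9% and 23.5% of low cells, in 0% and 1.6% of high cells and in 0.451% of smooth muscle cells.

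Promoter sequences are shown for Pi16 and Dpp4, which name the high cells, and for Cxcl14 and Igfbp3, the named genes with the largest folds toward the low cells. Each is the stretch of 250 bases before the gene's start in RefSeq (GRCm38.p6), 5′ to 3′ on the gene's strand, with matches in capitals to CCACCC (KLF type), TGANTCA (AP-1 type), TCCC and GGGA spaced by any 2 bases (EBF type) and TATAAA, searched on both strands. The motifs were chosen after the transcription factor genes Klf2, Klf4, Ebf1, Ebf2 and Fos had been called. The Pi16 stretch is chr17:29318632-29318881 (plus strand), Dpp4 chr2:62412232-62412481, Cxcl14 chr13:56296552-56296801 and Igfbp3 chr11:7213924-7214173 (minus strand each).
Pi16: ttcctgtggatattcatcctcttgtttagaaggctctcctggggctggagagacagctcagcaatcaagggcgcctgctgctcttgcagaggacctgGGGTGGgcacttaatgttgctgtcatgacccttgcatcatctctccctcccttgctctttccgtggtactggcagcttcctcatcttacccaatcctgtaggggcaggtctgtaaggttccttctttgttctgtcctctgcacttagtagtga
Dpp4: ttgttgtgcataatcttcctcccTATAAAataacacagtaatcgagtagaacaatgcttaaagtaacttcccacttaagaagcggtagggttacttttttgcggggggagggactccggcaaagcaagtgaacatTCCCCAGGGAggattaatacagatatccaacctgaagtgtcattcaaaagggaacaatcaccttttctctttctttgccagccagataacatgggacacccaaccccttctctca
Cxcl14: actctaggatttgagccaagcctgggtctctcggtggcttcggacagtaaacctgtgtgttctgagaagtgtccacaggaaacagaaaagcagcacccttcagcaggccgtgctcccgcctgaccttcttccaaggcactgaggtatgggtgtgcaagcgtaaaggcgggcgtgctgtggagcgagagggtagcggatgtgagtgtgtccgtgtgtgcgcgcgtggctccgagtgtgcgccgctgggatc
Igfbp3: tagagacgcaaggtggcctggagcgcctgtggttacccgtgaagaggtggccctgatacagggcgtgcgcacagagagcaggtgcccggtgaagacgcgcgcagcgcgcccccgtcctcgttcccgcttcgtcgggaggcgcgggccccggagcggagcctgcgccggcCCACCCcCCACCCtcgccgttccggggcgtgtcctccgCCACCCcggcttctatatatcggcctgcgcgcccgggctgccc
The Pi16 stretch holds 1 KLF-type match, the Dpp4 stretch 1 EBF-type match and 1 TATAAA, the Igfbp3 stretch 3 KLF-type matches, and the Cxcl14 stretch none of the 4 motifs. For shares over many genes, 1 entry was kept per gene and the genes of 1 chromosome were left out. Over the genes that remained, CCACCC was found in 40.9% of 186 higher genes, 38.8% of 196 lower genes and 34.0% of 7859 tested genes. TGANTCA was found in 5.91%, 5.61% and 4.25%, the EBF-type motif in 1.61%, 1.53% and 0.98%, and TATAAA in 8.6%, 10.2% and 6.5%. A match is a description of the letters only.

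The other genes of that group code for receptors, membrane proteins and secreted proteins. Prlr (prolactin receptor) and Adcyap1r1 (receptor of the neuropeptide PACAP) each had 0 and 2 UMIs in high cells, against 29 and 46 and against 19 and 56 in low cells, and both had a ratio of 29.4 (counting interval 7.87 to 248). Tmem176a and Tmem176b, neighbouring membrane proteins with similar sequences, had 141 and 132 CPM and 277 and 215 CPM in low cells and 0 and 7.37 CPM and 5.64 and 21.1 CPM in high cells. Their log2 fold changes were -4.67 ± 0.44 and -3.90 ± 0.35 (edgeR adjusted p = 1.31e-09 and 4.1e-10). Vtn (vitronectin, a plasma adhesion protein) had 93.1 and 80.7 CPM in low and 11.3 and 0 CPM in high cells (-4.75 ± 0.73, edgeR adjusted p = 2.5e-05), with a log2 fold change of -2.89 in library 1 and -5.74 in library 2. Spon1, an extracellular matrix protein, Scg3, a secretory granule protein, Ifitm1, an interferon-induced membrane protein, Dlk1, a Notch-related ligand, and Fam150b, a ligand of the kinase Alk, had ratios from 22.8 (Fam150b, 7.54 to 113) to 47.1 (Scg3, 8.14 to 1891), with 1 to 3 UMIs in high cells. DESeq2 did not call Vtn (adjusted p = 0.819), Ifitm1 (0.0938) or Dlk1 (0.628). Scg3 was not called when cells were split by Smpd3 and Pla1a alone (edgeR adjusted p = 0.883).

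Fibrillar collagens were lower in the high cells. Of the 14 collagens and collagen-processing genes, 11 were lower and 2 higher (background 2.72% and 2.5%), with a median log2 fold change of -0.88. Col1a1, the main chain of type I collagen, had 1208 and 1400.2 CPM in high, 2250.2 and 1502 CPM in middle and 2854 and 3043 CPM in low cells (-1.21 ± 0.21, edgeR adjusted p = 0.000106). Col3a1, the chain of type III collagen, had 1634 and 1947 CPM against 4127 and 5657 CPM in low cells (-1.48 ± 0.23, edgeR adjusted p = 3e-05). Lox, the enzyme that crosslinks collagen and elastin, had 36.7 and 48.5 CPM against 161 and 105 CPM (-1.49 ± 0.25, edgeR adjusted p = 6.23e-05). High cells thus had the lowest level of these 3 genes in both libraries. Col5a3 and Col8a1 were lower at levels under 73 CPM (-2.08 ± 0.39 and -2.02 ± 0.42), and both lost their calls after thinning, as did Lox (-0.95, edgeR adjusted p = 0.181). The higher members were Col14a1 (1377 and 1195 CPM against 716 and 743 CPM, 0.77 ± 0.18, edgeR adjusted p = 0.00505) and Col12a1 (59.3 and 57.9 CPM against 14.5 and 27.2 CPM, 1.29 ± 0.37, edgeR adjusted p = 0.0333), which coat fibrils rather than form them. Each kept its call under 10 of 13 alternatives.

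Basement membrane genes followed the fibrillar collagens and elastic fibre genes did not. Of 12 basement membrane genes 6 were lower and 1 higher (background 2.72% and 2.5%), with a median log2 fold change of -0.68. Col4a1, a chain of type IV collagen, had 50.8 and 69.5 CPM in high and 205 and 228 CPM in low cells (log2 fold change -1.83 ± 0.18, edgeR adjusted p = 2.3e-09), and Col4a2, its partner chain, 31.0 and 33.7 CPM against 91.1 and 83.2 CPM (-1.44 ± 0.27, edgeR adjusted p = 0.000322). Nid1, a basement membrane linker, was the higher member, with 699.8 and 785 CPM against 321 and 376 CPM (1.05 ± 0.17, edgeR adjusted p = 3.9e-05). Of 15 elastic fibre genes 3 were higher and none lower (background 2.5% and 2.72%; median -0.25). These were Fbn1 (fibrillin 1; 643 and 721 CPM against 176 and 305 CPM, 1.44 ± 0.21), Efemp1 (fibulin 3; 562 and 778 CPM against 261 and 335 CPM, 1.13 ± 0.18) and Loxl1 (a lysyl oxidase of elastic fibres; 767 and 652 CPM against 337 and 376 CPM, 0.93 ± 0.18). Efemp1 was not called by DESeq2 (adjusted p = 0.469) or without the library term (edgeR adjusted p = 0.0665). Eln, elastin itself, had 243 and 194 CPM in high and 211 and 341 CPM in low cells, which overlap (-0.45 ± 0.30, edgeR adjusted p = 0.567). Among 10 small leucine-rich proteoglycans 4 were lower and none higher (background 2.72% and 2.5%; median -0.48), such as Lum (1106 and 1291 CPM against 2463 and 2556 CPM, -1.11 ± 0.23, edgeR adjusted p = 0.0013; not called by DESeq2 or without the library term) and Podn (76.2 and 57.9 CPM against 151 and 167 CPM, -1.39 ± 0.21).

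**Figure D4:**
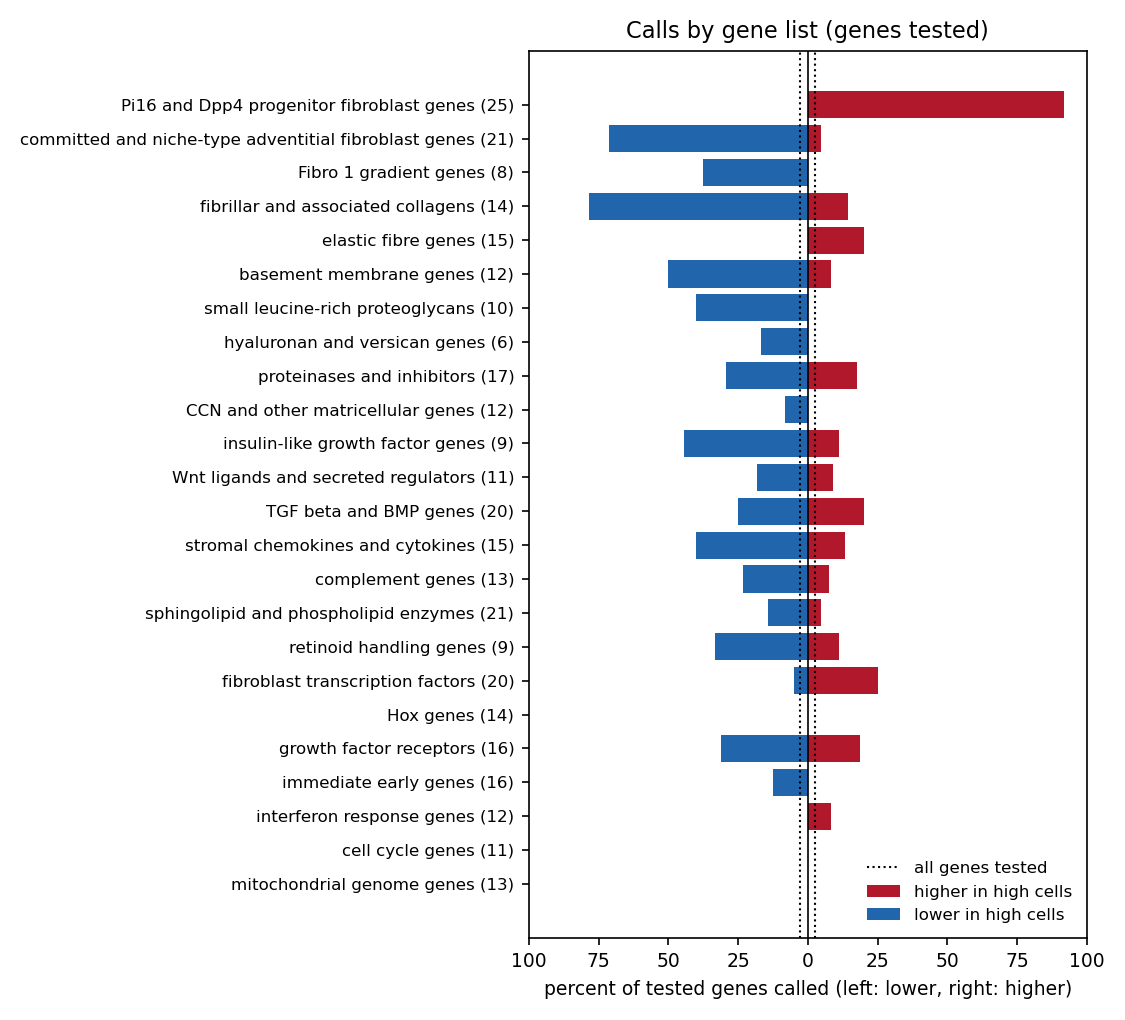
Percent of tested genes of each list called higher (right, red) or lower (left, blue) in high than in low Fibro 2 cells, with the number tested in brackets and dotted lines at the percent over all genes tested (2.5% higher, 2.72% lower). Progenitor genes stand at the right edge, with 23 of 25 higher, and collagens and niche-type genes at the left. The lists were chosen with earlier results of these data known.

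Insulin-like growth factor genes and chemokines held called genes in both directions. Among 9 insulin-like growth factor genes 4 were lower and 1 higher (background 2.72% and 2.5%), the lower ones including the ligands Igf1 and Igf2 and the carrier Igfbp3. Igf1, the ligand, had 223 and 158 CPM in high and 737 and 453 CPM in low cells (log2 fold change -1.65 ± 0.23, edgeR adjusted p = 2.42e-06), while Igfbp5, a matrix-bound carrier, had 2855 and 3907 CPM against 649.9 and 564 CPM (2.43 ± 0.24, edgeR adjusted p = 2.46e-09). Igf2 had no UMI in high cells and 6 and 10 in low cells, at least 4.19-fold lower. Among 15 chemokines and cytokines 6 were lower and 2 higher (background 2.72% and 2.5%). Ccl19, a ligand of Ccr7, had 16.9 and 61.1 CPM in high and 385 and 392 CPM in low cells (-3.09 ± 0.21, edgeR adjusted p = 1.58e-12), and Ccl8, a monocyte attractant, 8.46 and 8.43 CPM against 51.7 and 84.1 CPM (-3.15 ± 0.45, edgeR adjusted p = 8.82e-06). Ackr3, a scavenging receptor of Cxcl12, was higher where Cxcl12 was lower, with 1098 and 889 CPM in high and 84.9 and 152 CPM in low cells (2.92 ± 0.29, edgeR adjusted p = 4.06e-09). Il33, a nuclear alarmin, had 451 and 385 CPM against 240.1 and 190.2 CPM (0.94 ± 0.16, edgeR adjusted p = 0.00014).

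Wnt, TGF beta and BMP genes were also called in both directions (background 2.5% higher and 2.72% lower). Among 11 Wnt genes Wnt2, a ligand, was higher (90.3 and 78.0 CPM against 22.8 and 19.5 CPM, log2 fold change 1.96 ± 0.34, edgeR adjusted p = 0.000143) and 2 were lower, among them Sfrp1, a secreted Wnt antagonist (107 and 96.9 CPM against 488 and 527 CPM, -2.36 ± 0.26, edgeR adjusted p = 4.53e-08). Among 20 TGF beta and BMP genes 4 were higher and 5 lower. Tgfbr2, the type II receptor, had 285 and 279 CPM in high and 112 and 97.7 CPM in low cells (1.42 ± 0.19, edgeR adjusted p = 1.34e-06). Bmp7, a ligand, had 6 and 21 UMIs in high and 0 and 3 in low cells, a ratio of 11.5 (counting interval 3.53 to 59.0; edgeR adjusted p = 0.024), and was not called by DESeq2. Gdf10, a BMP-related ligand, had 299 and 199 CPM in high cells against 981 and 707 CPM in low cells (-1.81 ± 0.24, edgeR adjusted p = 1.94e-06).

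Complement genes and matrix proteinases held called genes in both directions (background 2.5% higher and 2.72% lower). Of 13 complement genes 3 were lower, among them C2 (11.3 and 31.6 CPM against 151 and 171 CPM in low cells, log2 fold change -2.72 ± 0.29) and C4b (45.1 and 40.0 CPM against 205 and 251 CPM, -2.52 ± 0.24), and the regulator Cd55 was the only one higher. Both C2 and C4b form the classical convertase (edgeR adjusted p = 1.47e-08 and 2.46e-09). Of 17 proteinases and inhibitors 3 were higher and 5 lower. Adamts5, an aggrecanase, had 547 and 735 CPM in high and 151 and 159.7 CPM in low cells (2.03 ± 0.18, edgeR adjusted p = 2.17e-10). Mmp3 (stromelysin 1) had 556 and 68.5 CPM in high and 969 and 581 CPM in low cells, and its high cells differed between the libraries (-1.73 ± 0.31, edgeR adjusted p = 0.000232). The Mmp3 fold was -0.82 in library 1 and -3.07 in library 2, and it was not called by DESeq2 or without the library term.

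Receptors and transcription factors of the high cells were measured on separate lists (background 2.5% higher and 2.72% lower). Of 16 growth factor receptors 3 were higher and 5 lower. Tek, the angiopoietin receptor, had 93.1 and 96.9 CPM in high, 66.2 and 75.4 CPM in middle and 18.6 and 11.9 CPM in low cells (log2 fold change 2.73 ± 0.30, edgeR adjusted p = 3.39e-08). Axl, a receptor kinase for Gas6, had 892 and 837 CPM against 292 and 280.3 CPM (1.56 ± 0.17, edgeR adjusted p = 3.39e-08). Lifr, the receptor of leukaemia inhibitory factor, had 62.1 and 32.7 CPM against 124 and 107 CPM (-1.50 ± 0.26, edgeR adjusted p = 0.000151). Of 20 fibroblast transcription factors 5 were higher and 1 lower. The higher ones were Creb5 (717 and 661 CPM against 188 and 191 CPM, 1.80 ± 0.21), Klf2 (593 and 656 CPM against 213 and 245 CPM, 1.40 ± 0.25), Klf4 (1.33 ± 0.22), Ebf2 (0.95 ± 0.19) and Ebf1 (0.74 ± 0.22), and the lower one was Nr2f2 (-1.13 ± 0.23). Ebf1 kept its call under 9 of 13 alternatives. Of 14 Hox genes none was called, and of 16 immediate early genes, which dissociation can induce, 2 were lower, Fos (607 and 905 CPM against 954 and 1507 CPM, -0.73 ± 0.22, edgeR adjusted p = 0.0381) and Fosb (-1.37 ± 0.23, -0.83 in library 1 and -1.51 in library 2). Fos kept its call under 8 of 13 alternatives.

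Fibro 1, the larger fibroblast population with 1147 cells, was split by the same score and percentiles to ask whether the same genes go with it there. Its boundary for high cells was far lower, at 22.0 and 19.8 per 10000 UMIs, so the splits do not compare equal levels of Pi16. In Fibro 1, 74 genes were higher and 35 lower (edgeR, 0.715% and 0.338% of 10356 genes tested, 1.05% in either direction). Of the 256 genes higher in Fibro 2 high cells, 18 were also higher in Fibro 1 (7.03%, and 24.3% of the 74), and 8 were lower in both (2.87% of 279 and 22.9% of 35). Calls also went opposite ways, with 9 genes lower in Fibro 2 and higher in Fibro 1, and 1 gene the reverse. The difference of the splits was itself tested, and 82 genes were called above and 197 below in Fibro 2 (0.792% and 1.9%, 2.69% in either direction). Of the 25 progenitor genes 12 differed, all above. In the Fibro 1 split itself 8 of these 25 were higher and 1 lower (background 0.715% and 0.338%), with a median log2 fold change of 0.74. A rise of progenitor genes with the score was thus not particular to Fibro 2. Dpp4 had 0.521 and 1.72 CPM in Fibro 1, and its split difference was 3.94 ± 1.09 on the log2 scale (edgeR adjusted p = 0.0407). Sema3c was higher in high cells of both populations (1.27 ± 0.22 in Fibro 1, edgeR adjusted p = 0.000597), with a difference of 1.22 ± 0.29 (edgeR adjusted p = 0.0121).

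The effect of the split on collagens differed between the populations. Of 14 genes on the list 12 had a difference below 0 at an adjusted p under 0.05 (background 1.9%) and none above. In Fibro 1 itself 2 of the 14, Lox and Col5a1, were called, both higher, so an opposite direction was not shown for most of the list. Col1a1 had log2 fold changes of -1.21 ± 0.21 in Fibro 2 and 0.41 ± 0.20 in Fibro 1, a difference of -1.62 ± 0.29 (edgeR adjusted p = 0.000395). Lox was lower with the score in Fibro 2 and higher in Fibro 1 (1.14 ± 0.15, edgeR adjusted p = 1.66e-05), a difference of -2.63 ± 0.31 (edgeR adjusted p = 6.12e-07). Eln followed Lox in Fibro 1 (1.00 ± 0.25, edgeR adjusted p = 0.0404), with a difference of -1.44 ± 0.39 (edgeR adjusted p = 0.0316). Igfbp3 was lower with the score in both populations (-4.18 ± 0.49 in Fibro 1, edgeR adjusted p = 2.66e-06), and the difference was not called (-1.41 ± 1.02, edgeR adjusted p = 0.701).

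**Figure D5:**
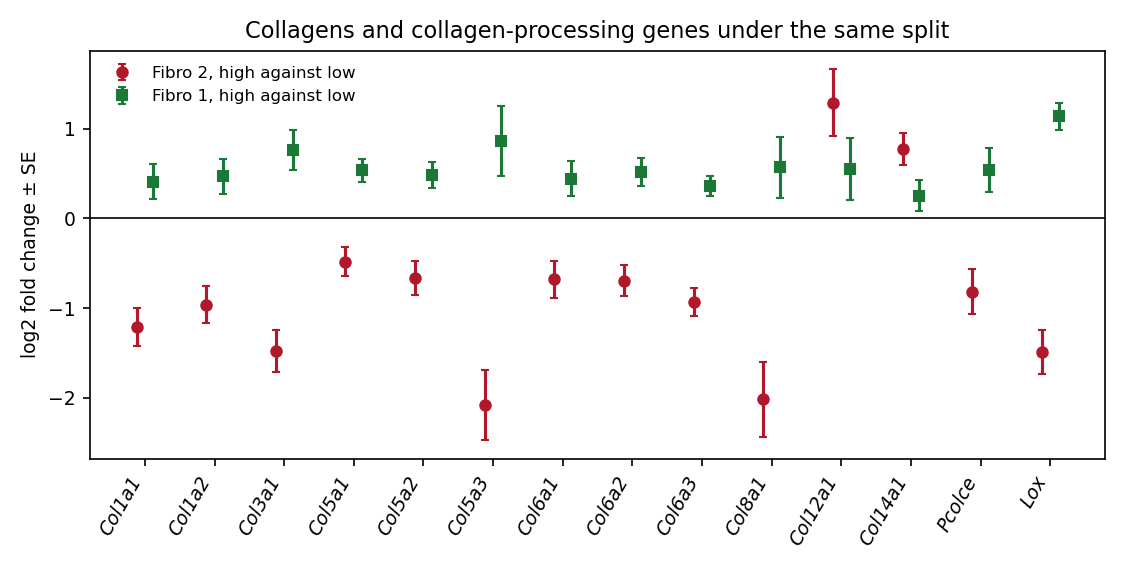
Log2 fold change ± SE of the 14 collagens and collagen-processing genes in high against low cells of Fibro 2 (red circles) and of Fibro 1 (green squares). All 14 Fibro 1 values lie above 0, with 2 of them called, while 12 Fibro 2 values lie below 0, with 11 called.

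The level in Fibro 1 as a whole lay nearer to the low than to the high cells of Fibro 2 in both libraries for 229 of the 256 higher genes (89.5%) and 188 of the 279 lower genes (67.4%), against 36.8% of all genes tested. Called genes were selected for differing between high and low cells, so the share over all genes tested is not a like background. Fibro 1 lay nearer to the high cells in both libraries for 11 of the higher genes (4.3%) and 58 of the lower genes (20.8%). Over all genes tested this share was 17.5%. Cxcl14 and Igfbp3 were among the lower genes of this kind. Cxcl14 had 1.56 and 1.72 CPM and Igfbp3 35.4 and 39.9 CPM in Fibro 1, far under the low cells of Fibro 2.

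The label was checked on markers of fibroblasts and of other cell types. Of 13 general fibroblast markers 6 were lower and 1 higher (background 2.72% and 2.5%), with a median log2 fold change of -0.60. All 13 had UMIs in high and low cells. Pdgfra, the receptor that marks fibroblasts, had 265 and 304 CPM in high and 366 and 396 CPM in low cells (log2 fold change -0.45 ± 0.14, edgeR adjusted p = 0.0566), and was called lower under 5 of 13 alternatives, among them the 90th percentile (-0.81, edgeR adjusted p = 0.00343). None of 10 smooth muscle, 12 macrophage, 7 MHC class II, 8 lymphocyte or 5 haemoglobin genes was called by edgeR. With 5.22% of all genes called, few calls would fall on lists of this length, and 8, 4, 4, 0 and 5 of these genes had at least 50 UMIs, so the summed levels say more than the counts. Summed haemoglobin was 7271 and 7279 CPM in high and 9607 and 5135 CPM in low cells, and summed smooth muscle markers 1154 and 614 against 1118 and 1006 CPM. Endothelial markers summed to 231 and 184 CPM in high and 114 and 118 CPM in low cells, where Tek was the only member called and Cdh5, a junction protein of endothelium, stood at 5.64 and 4.21 CPM against 8.28 and 3.4 CPM. Lymphatic markers summed to 528 and 117 CPM in high and 139 and 73.9 CPM in low cells, with Ccl21a the only member called. Pericyte markers summed to 239.8 and 220.2 CPM against 476 and 405 CPM, with Abcc9, Notch3 and Ndufa4l2 lower and 2 of 9 members without a UMI in high cells. The part of these cell types in the results was not tested, apart from the cells with endothelial or lymphatic UMIs that were left out.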

How the data were processed

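The deposited table holds raw UMI counts per gene and cell, and per the submitters' processing notes Cell Ranger 2.1 was used. The genome build is not given in the sources used here. The authors' deposited annotation gave each cell its population, and the barcode suffix its library. Which suffix belongs to which labelled aorta is not given in the sources used here. The members and the gene lists were chosen with earlier results of these data known.

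Counts were summed per library and population or score group (at least 10 cells, 24 sums). edgeR 4.0.16 (R 4.3.3; filterByExpr, TMM, quasi-likelihood test on population plus library, prior count 2) was run on all sums at once, leaving out Pi16, Smpd3 and Pla1a. This gave 10254 tested genes and 11 residual degrees of freedom. The sums share 2 aortas. With the library in the fit, p-values rest on how differences between populations vary between the 2 libraries. That spread was pooled over all populations, not only fibroblasts, because high and low cells alone leave 1 residual degree of freedom. A gene was called at a Benjamini-Hochberg adjusted p under 0.05. The ± beside a log2 fold change is its standard error, computed as the size of the fold change over the square root of the F statistic. For genes with 1 to 3 UMIs in a group, ratios of counts with 95% intervals are given, and with 0 UMIs a bound against 3 counts over the group. Each score gene was fitted with the cells split by the remaining score genes. Intervals and floors cover counting error only.

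The naming rule took 3 kinds of genes: in each direction the 12 called genes of largest fold that had 50 or more UMIs and did not change sign between libraries, up to 4 genes of every list, and 20 fixed genes. Npr1, Col12a1, Col14a1, Nid1, Il33, Ackr3, Plpp3, Has1, Abcc9, Klf4, Ebf1, Ebf2, Nr2f2 and Hspg2 were chosen after their values were seen. The rule took 170 genes, of which the text names a part. Clusters came from scanpy 1.11.5 and leidenalg 0.10.2 (2000 variable genes, 20 principal components, 15 neighbours, resolution 0.6). Doublets called by Scrublet (80 cells, of which 4 were high or low Fibro 2 cells) were kept, and left out in an alternative. In simulated data on 10254 genes for the Fibro 2 comparison, 48% of genes changed 2-fold and 97% of those changed 4-fold were called, with 2 of 10054 unchanged genes. The fit was repeated with DESeq2 1.42.0, with RLE size factors, without the library term, with only the compared sums, without a filter for low counts and without doublets. Cells were also thinned, matched in total UMIs, split at the 90th percentile, or scored by Pi16 alone or by Smpd3 with Pla1a.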

Additional observations from a re-analysis of the deposited data

Results flagged for a closer look

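The split by the score had different effects in Fibro 2 and Fibro 1 for 21 genes on the collagen list or among the fixed genes, by the test of the difference itself (edgeR adjusted p under 0.05, Fibro 2 minus Fibro 1, log2 scale). The same score took cells at a lower Pi16 level in Fibro 1. The part of that level in the differences was not tested.

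The progenitor genes among these had the larger fold in Fibro 2. The differences were 3.94 for Dpp4, 2.38 for Cd55, 1.53 for Anxa3, 1.22 for Sema3c and 1.05 for Cd248. Dpp4 was nearly absent from Fibro 1, and its standard error was 1.09. The niche-type genes differed the other way, by -3.45 for Col15a1, -2.33 for Apoe and -1.11 for Cxcl12.

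Of the listed collagens and collagen-processing genes, all but Col12a1 and Col14a1 were called below 0 in this difference. The values were -1.62 for Col1a1, -1.43 for Col1a2, -2.24 for Col3a1, -1.01 for Col5a1, -1.14 for Col5a2, -2.93 for Col5a3 and -2.57 for Col8a1. Type VI collagen, a beaded filament of the pericellular matrix, gave -1.12 for Col6a1, -1.21 for Col6a2 and -1.29 for Col6a3. Pcolce, an enhancer of procollagen cleavage, gave -1.35, Lox -2.63 and elastin (Eln) -1.44.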

How the results depend on the processing

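All 3 score genes stayed higher and called in cells chosen without them under each alternative run, with log2 fold changes of 1.46 to 1.68 for Pi16, 2.67 to 3.21 for Smpd3 and 2.28 to 2.63 for Pla1a. With 1 library left out these were 1.60 to 1.76, 3.02 to 3.12 and 2.31 to 2.96. Counts of called genes could not be had with 1 library left out, since no residual degrees of freedom remain. The reported fit is paired by aorta, with the library as the replicate block. Without the library term 161 genes were higher and 183 lower in Fibro 2 (reported 256 and 279), and with only the sums compared 398 and 441. Thinning gave 146 higher, and matching in total UMIs 162 and 180. In Fibro 1 (74 and 35) the counts were 28 and 14 with DESeq2, 17 and 11 without the library term and 153 and 107 with only the sums compared. There 93 genes were lower with no filter and 16 after thinning. For the difference of the splits (82 and 197), 33 and 73 were called without the library term, 166 and 311 with only the sums compared and 39 and 96 after matching, with 50 above after thinning and 130 below with DESeq2. The cause was not tested. Of 108 named genes 100 were called, 59 of them under all 13 alternatives and 41 lost under at least 1, of which 20 with DESeq2 (Adra1b, Bmp7, Ccl21a, Cers4, Col12a1, Dlk1, Ebf1, Efemp1, Fos, Ifitm1, Lum, Ly6a, Ly6c1, Mmp3, Mrgprg, Notch3, Scn7a, Spp1, Timp1 and Vtn), 19 after thinning (Abcc9, Aldh1a3, Arl4d, Col14a1, Col4a2, Col5a3, Col8a1, Dlk1, Ebf2, Ecm2, Igf2, Lox, Nid2, Notch3, Npr1, Nr2f2, Scg3, Timp1 and Wnt2) and 14 with the score of Smpd3 and Pla1a (Ccl21a, Ccl8, Col14a1, Col18a1, Col5a3, Ebf1, Fos, Fosb, Il33, Ly6a, Nid2, Notch3, Scg3 and Wnt2). Of the 100 called genes 17 moved by more than the spread between libraries with library 1 left out, 43 with library 2 left out and 42 with equal weight of cells, none of them to the opposite sign. Ly6a, Cers4, Ebf1, Fos, Notch3 and Spp1 lost their calls under more than 3. Among called genes 1 changed sign, Ccl21a (-0.64 with the score of Smpd3 and Pla1a). Signs also changed for genes that were not called: Acta2 (0.12 without doublets, 0.041 thinned), Cdh5 (0.30 matched, 0.32 without endothelial-marked cells, 0.091 with the score of Smpd3 and Pla1a) and C1qa (-0.37 thinned, -0.85 at the 90th percentile, -0.32 with Pi16 alone, -0.60 without endothelial-marked cells). Leaving out endothelial-marked cells (262 higher, 262 lower) and requiring at least 50 UMIs (277 and 258) were chosen after seeing the data.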

Other observations

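Most lipid and retinoid genes were not called. Of 21 sphingolipid and phospholipid enzymes 3 were lower, 1 higher and 17 not called, with a median log2 fold change of -0.02 (background 2.72% lower and 2.5% higher). Enpp2 (autotaxin), which makes lysophosphatidic acid, had 8.46 and 6.32 CPM in high and 26.9 and 74.7 CPM in low cells (log2 fold change -3.12 ± 0.55, edgeR adjusted p = 0.000146), and its log2 fold change was -1.51 in library 1 and -3.29 in library 2. Plpp3, which degrades that lipid, had 2356 and 1838 CPM against 1012 and 944 CPM (1.06 ± 0.16, edgeR adjusted p = 9.29e-06). Cers4, a ceramide synthase, had 31.0 and 15.8 CPM against 37.3 and 45.9 CPM (-1.14 ± 0.34, edgeR adjusted p = 0.0375). The Cers4 fold was -0.27 in library 1 and -1.47 in library 2, and it was called under 9 of 13 alternatives. Of 9 retinoid genes 3 were lower, 1 higher and 5 not called. Aldh1a3, which makes retinoic acid, had 161 and 203 CPM against 62.1 and 66.2 CPM (1.49 ± 0.26, edgeR adjusted p = 0.000151), whereas Adh1, a retinol-oxidizing dehydrogenase, had 31.0 and 41.1 CPM against 141 and 116 CPM (-1.73 ± 0.24) and Rbp4, the retinol carrier, 70.5 and 36.9 CPM against 130.4 and 97.7 CPM (-1.22 ± 0.24).

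Of 8 tested genes on a list of genes graded within Fibro 1, 3 were lower in the high cells and 5 were not called (background 2.72% lower). Cilp, a cartilage intermediate layer protein, had 50.8 and 16.9 CPM in high and 120.0 and 239.5 CPM in low cells (log2 fold change -2.93 ± 0.31, edgeR adjusted p = 2.39e-08). A single low cell held 153 of the Cilp UMIs and the richest 10% of low cells 98.8%, and the log2 fold change was -1.24 in library 1 and -3.73 in library 2. Comp, a collagen-binding thrombospondin, had 8.46 and 8.43 CPM against 51.7 and 119.8 CPM (-3.55 ± 0.72, edgeR adjusted p = 0.00119). It was found in 8.65% and 8.88% of low cells, and a single low cell held 40 of its UMIs. Mgp, an inhibitor of calcification, had 900.1 and 1436 CPM against 3212 and 3290.3 CPM (-1.55 ± 0.30, edgeR adjusted p = 0.000452), and 14169.7 and 22235 CPM in Fibro 1. Cilp had the opposite sign in the Fibro 1 split (1.20, edgeR adjusted p = 0.00784; difference -4.12, adjusted p = 1.26e-07). Wisp2, a CCN protein, was not called in Fibro 2 (22.6 and 39.0 CPM against 62.1 and 65.4 CPM, -0.91 ± 0.37, edgeR adjusted p = 0.197).

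Further called genes of the lists stood in both directions. Adamtsl4, a microfibril-binding protein (152 and 115 CPM against 29.0 and 39.9 CPM, log2 fold change 1.75 ± 0.26), and Ifi27l2a, an interferon-induced gene (1019 and 1016 CPM against 224 and 266 CPM, 2.00 ± 0.25), were higher. Timp1, a metalloproteinase inhibitor (-1.36 ± 0.33), Cd44, the hyaluronan receptor (-1.70 ± 0.32), Ecm2, a matrix proteoglycan relative (-0.88 ± 0.17), Col18a1, a basement membrane collagen (-1.28 ± 0.31, -0.61 in library 1 and -1.47 in library 2), Scn7a, a sodium channel (-0.88 ± 0.19), and Ndufa4l2 (-2.88 ± 0.41) were lower. Nid2, a basement membrane linker, had a ratio of 14.5 (counting interval 3.75 to 124) in favour of low cells. Spp1 (osteopontin) had UMIs in low cells of library 2 only, at 51.0 CPM, against 0 and 1.05 CPM in high cells. It was found in 1.87% of those low cells, and a single low cell held 35 of its 60 UMIs there. Acta2, a contractile actin, stood at 528 and 351 CPM in high and 488 and 533 CPM in low cells, and C1qa, a macrophage complement gene, at 22.6 and 29.5 CPM against 33.1 and 17.0 CPM, and neither was called (edgeR adjusted p = 0.593 and 0.902).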
